A study of Mus musculus with 4 samples.

Results

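The genes described here encode the beta subunits of the sodium pump (Atp1b1, Atp1b2 and Atp1b3) and 5 of its FXYD regulators (Fxyd1, Fxyd2, Fxyd3, Fxyd5 and Fxyd6). They were taken by gene symbol, 8 of 38924 listed genes, and all 8 had enough reads to be tested. RNA was sequenced from kidney of female CB-17 SCID animals, mice with a Balb/c background that have no functional B and T cells. The saline group (2 libraries) had tail vein injections of saline. The immune complex group (2 libraries) had injections of IgG autoantibody bound to IgA1 that lacks galactose (Gd-IgA1), its autoantigen in IgA nephropathy. Both groups had 3 injections within 7 days, and kidneys were taken 1 day after the last. Each library came from part of a kidney, and no label says that the 4 pieces are from 4 animals, so a p-value here weighs differences against the spread of these samples, which may be technical. The model gives preformed complexes to a host that does not make its own antibodies, and no source used here gives the age of the mice. The question is whether complexes alter the kidney transcriptome.

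The sodium pump moves sodium out of and potassium into the cell against their gradients, at the cost of ATP. In kidney tubules it sits in the basolateral membrane and drives sodium reabsorption along the whole nephron. Its catalytic alpha subunit needs a glycosylated beta subunit to fold and reach the membrane. A small single-span FXYD protein can join the pair and tune its affinity for ions, and Fxyd2, the gamma subunit, is the kidney's main one.

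The genes lie in few places of GRCm38. Atp1b1 lies on chromosome 1, Atp1b2 on chromosome 11 and Atp1b3 on chromosome 9, all 3 on the minus strand. Fxyd5, Fxyd1 and Fxyd3 stand within 43983 bases of chromosome 7, on the minus strand. Fxyd6 and Fxyd2 are neighbours on the plus strand of chromosome 9, with 6979 bases between them as the count tables draw them. GENCODE M21 begins Fxyd2 further upstream, at 45399669, so the gap is smaller there. Promoters of 6 of the 8 genes were matched in RefSeq (GRCm38.p6). The 250 bases before the start are shown for the 2 beta genes with the higher level and for Fxyd1, the gene with the largest group difference. Capitals mark GC boxes (GGGCGG, or CCGCCC for the other strand).

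Atp1b1, chr1:164458356-164458605, minus strand: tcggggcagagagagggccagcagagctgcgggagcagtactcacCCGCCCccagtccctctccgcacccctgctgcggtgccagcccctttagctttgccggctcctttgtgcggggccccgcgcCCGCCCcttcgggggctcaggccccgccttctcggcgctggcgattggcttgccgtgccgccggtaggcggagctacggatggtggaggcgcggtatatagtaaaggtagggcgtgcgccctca
Atp1b3, chr9:96364432-96364681, minus strand: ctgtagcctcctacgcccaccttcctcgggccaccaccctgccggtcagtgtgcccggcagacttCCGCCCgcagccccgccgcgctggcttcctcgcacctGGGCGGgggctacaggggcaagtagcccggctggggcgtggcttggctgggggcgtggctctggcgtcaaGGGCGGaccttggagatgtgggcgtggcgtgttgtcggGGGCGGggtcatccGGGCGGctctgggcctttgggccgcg
Fxyd1, chr7:31054854-31055103, minus strand: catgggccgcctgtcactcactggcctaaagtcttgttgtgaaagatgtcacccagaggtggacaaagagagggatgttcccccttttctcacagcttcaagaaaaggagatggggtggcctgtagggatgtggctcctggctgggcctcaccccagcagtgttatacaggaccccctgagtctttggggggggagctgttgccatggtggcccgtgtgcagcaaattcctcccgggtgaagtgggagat

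The GC box occurred 2 times in the Atp1b1 window and 5 times in that of Atp1b3. It was not found in the windows of Fxyd1, Fxyd3, Fxyd5 and Fxyd6, nor at a second Atp1b3 start in the same table. Of all 32851 RefSeq promoters of this length, 32.7% hold it. G and C made up 70.4% and 73.6% of the Atp1b1 and Atp1b3 windows printed above, 50.4% to 57.2% of the FXYD windows, and 52.4% of the median promoter. The Fxyd1 window lies inside the gene as the count tables draw it, because RefSeq starts that gene further downstream.

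Fxyd2 and Atp1b1 made up nearly all of the RNA of these 8 genes, whatever the group. Levels of different genes were compared per length, as RPKM (reads scaled to exon length and library size), over the 4 libraries. Fxyd2 averaged 1985 ± 360.0 RPKM (SD, n = 4) and ranked 23rd of all listed genes, and Atp1b1 averaged 1066 ± 119.2 RPKM and ranked 32nd. Atp1b3, the more widely expressed beta 3 subunit, averaged 53.2 ± 4.79 RPKM. Below it stood Fxyd1 at 6.59 ± 3.53, Atp1b2 at 3.11 ± 0.437, Fxyd5 at 2.08 ± 0.334, Fxyd6 at 1.69 ± 0.386 and Fxyd3 at 0.180 ± 0.157 RPKM. In this order neighbours overlapped between libraries for Fxyd1 with Atp1b2 and for Fxyd5 with Fxyd6, and no other neighbours did.

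**Figure D1:**
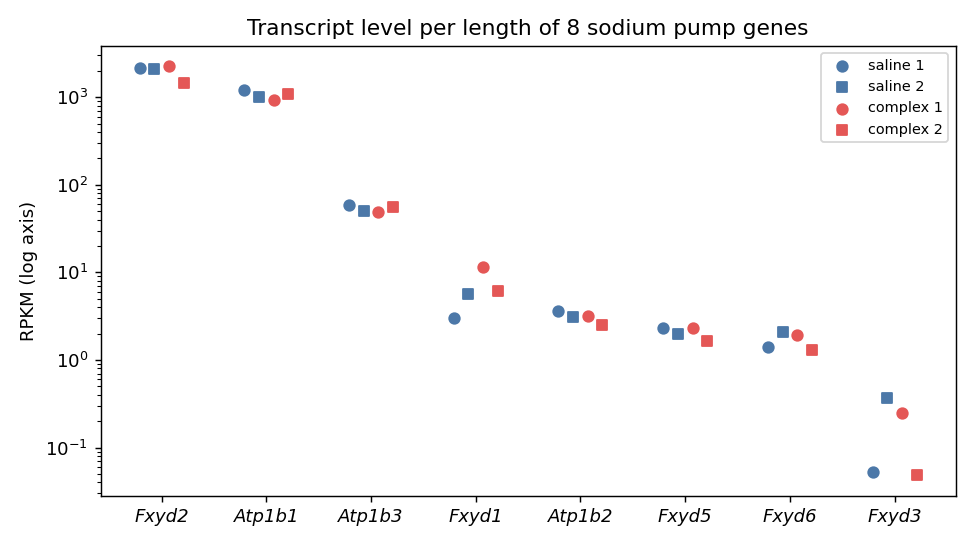
RPKM on a log axis for each gene (horizontal axis) in each library, blue for saline and red for immune complex, circles for replicate 1 and squares for replicate 2. Fxyd2 and Atp1b1 stand at 939.4 RPKM or more in all 4 libraries, while Fxyd3 does not pass 0.370 RPKM.

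Within the beta subunits, Atp1b1 took between 94.8% and 95.1% of RPKM in all 4 libraries. Atp1b3 took 4.60% to 4.88% and Atp1b2 0.219% to 0.324%. Among the 5 FXYD genes, Fxyd2 took 99.7% and 99.5% after saline, and 99.3% and 99.4% after immune complex. The group means of the Fxyd2 share differed by -0.267 percentage points. Fxyd4, an FXYD gene outside these 5, stood at 53.4 and 30.5 RPKM after saline, and 18.1 and 14.2 RPKM after immune complex. It was above Fxyd1 in every library and is left out of all these shares. The size and direction of their group differences therefore hold for the 5 genes only. The Fxyd1 share was 0.141% and 0.270% after saline, and 0.506% and 0.423% after immune complex.

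No member passed the test between the groups. Counts were compared with edgeR's quasi-likelihood test over 16334 genes with Benjamini-Hochberg adjustment, and 0 of 8 members had an adjusted p under 0.05, and 0 had an unadjusted p under 0.05. Over all tested genes the adjusted test called 0%, and 4.59% had an unadjusted p under 0.05. Of the 8 members 1 had a higher and 7 a lower fitted mean in immune complex kidneys, with a median log2 fold change of -0.05 against 0.01 over all tested genes. Groups did not overlap for 1 member, Fxyd1, against 30.0% of all tested genes (15.4% higher and 14.6% lower in immune complex kidneys). The authors' deposited table calls none of the 8 (0 members), against 0.538% of the genes it gives an adjusted p, and DESeq2 called 0 members here, against 0.604% of its genes. With 2 libraries against 2, an exact permutation test cannot go below p = 0.333.

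**Figure D2:**
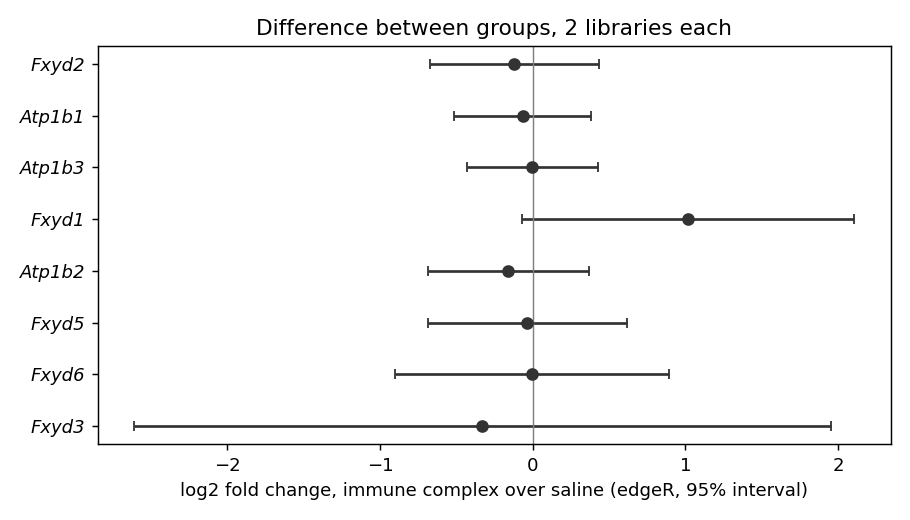
Log2 fold change of immune complex over saline for each gene, with the 95% interval of the edgeR fit (horizontal axis), genes in order of RPKM. All 8 intervals span 0, and that of Fxyd3 is the widest.

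Among the beta subunits, Atp1b1, the main beta subunit of tubule epithelium, stood at 2883 and 2459 CPM (read counts scaled to a common library size, with TMM factors) after saline, and 2354 and 2748 CPM after immune complex. The 2 groups overlapped, and replicates of each group lay farther apart than the group means. The log2 difference was -0.07 ± 0.19 (SE; edgeR adjusted p = 0.99997), with a 95% interval from -0.51 to 0.38. Atp1b3 stood at 105.3 and 92.1 CPM after saline, and 91.6 and 105.4 CPM after immune complex. Its log2 difference was -0.00 ± 0.18, with a 95% interval from -0.43 to 0.43, which leaves out a log2 change of 1 in either direction. Between 88.4% and 92.1% of Atp1b3 reads were placed at 1 location, against at least 99.98% for Atp1b1, and reads shared with near-identical copies make the Atp1b3 level less certain. Atp1b2, the beta 2 subunit known from glia as an adhesion molecule, stood at 14.2 and 12.9 CPM after saline, and 13.5 and 10.7 CPM after immune complex. These overlapped as well, with a log2 difference of -0.16 ± 0.22 and a 95% interval from -0.69 to 0.37.

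Atp1b1 and Atp1b3 shared a profile over the 4 libraries, high in saline 1 and immune complex 2 and low in the other 2. Genes of the thick ascending limb, the segment with the densest sodium pumps, were low in immune complex 1: Slc12a1, its apical cotransporter, stood at 1736 and 1578 CPM after saline, and 1004 and 1872 CPM after immune complex. Umod, which encodes uromodulin, stood at 5748, 5544, 3948 and 5727 CPM in the same order. The summed level of the 6 thick limb markers was 8184 and 7761 CPM after saline, and 5495 and 8343 CPM after immune complex. The part of segment sampling in the beta subunit values was not tested. In pieces of whole kidney, fewer cells of a type and less RNA per cell cannot be told apart.

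Fxyd2, which lowers the pump's affinity for sodium and whose mutation in people causes renal magnesium loss, stood at 1505 and 1537 CPM after saline, and 1679 and 1121 CPM after immune complex. The saline libraries were close to each other and lay between the 2 immune complex libraries, which held the highest and the lowest value. The log2 difference was -0.12 ± 0.23 (edgeR adjusted p = 0.99997), with a 95% interval from -0.67 to 0.43. Leaving out immune complex replicate 2 gave 0.14 and leaving out immune complex replicate 1 gave -0.44, so its direction rests on which of the pair is kept. The RPKM of Fxyd2 divided by that of Atp1b1 was 1.75 and 2.08 after saline, and 2.39 and 1.33 after immune complex. This ratio, chosen after the values were seen, had group means of 1.92 and 1.86.

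Of 11 markers of the proximal and distal convoluted tubule, 6 were also highest in immune complex 1 and lowest in immune complex 2. These were 3 of 6 proximal and 3 of 5 distal markers. The same order held for 3 of 6 glia and nerve markers, a list of which only 2 had enough reads to be tested. It also held for 1 of 6 principal cell, 1 of 5 intercalated cell and 1 of 6 endothelial markers, so it was not particular to these 2 segments. The share of all tested genes with this order was not counted. Slc34a1, the phosphate cotransporter of the proximal tubule, stood at 3222 and 3011 CPM after saline, and 3714 and 2438 CPM after immune complex. Slc12a3, the cotransporter of the distal convoluted tubule, stood at 505.1 and 538.6 against 644.2 and 362.8 CPM, and Pvalb, parvalbumin of the same segment, at 68.2 and 74.9 against 92.8 and 48.3 CPM. Lrp2, the endocytic receptor megalin, is also a proximal tubule gene and had the opposite order within the pair, at 1705 and 2436 CPM. The summed level of the 5 distal convoluted markers was 1174 and 1096 CPM after saline, and 1403 and 983.9 CPM after immune complex, and that of the 6 proximal markers 10681, 12832, 11307 and 15014 CPM. Kap, a kidney androgen-regulated gene picked out after its values were seen, supplied 3714, 5776, 3917 and 8797 CPM of the proximal sum. The other 5 proximal markers summed to 6967 and 7056 CPM after saline, and 7390 and 6216 CPM after immune complex. The highest and lowest sums fell in the same libraries as those of Fxyd2. Slc34a1 was the largest part of this sum in every library, so its order leans on 1 gene, and Lrp2 went the other way. The part of these tubule markers in the Fxyd2 values was not tested.

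**Figure D3:**
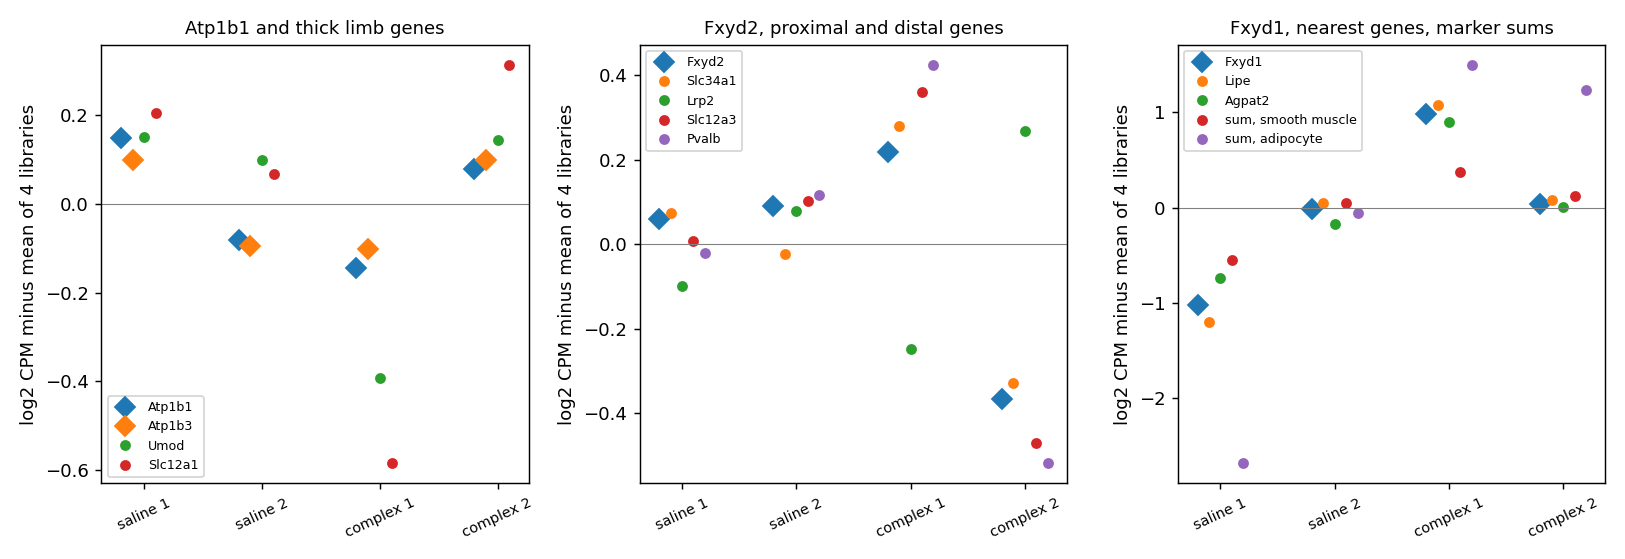
Log2 CPM minus the mean of the 4 libraries (vertical axis) in each library (horizontal axis), diamonds for members and circles for other genes or summed marker lists. Atp1b1 is low where Umod and Slc12a1 are lowest (left), Fxyd2 is lowest in immune complex 2 with Slc34a1, Slc12a3 and Pvalb but not Lrp2 (middle), and Fxyd1 is highest in immune complex 1 (right).

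Part of the Fxyd2 reads lay outside its exons. Intron reads made up 13.5% (95% Wilson interval 13.1% to 13.8%) and 14.1% (13.7% to 14.5%) of Fxyd2 reads in saline 1 and 2. They made up 13.5% (13.2% to 13.9%) in immune complex 1 and 16.1% (15.6% to 16.5%) in immune complex 2, the library with the fewest Fxyd2 reads. The share was higher in that library than in the other 3 by more than counting error, while immune complex 1 lay within the range of the saline libraries. In Atp1b1 the intron share was 1.02% to 1.26%. Over all genes it was 8.29% and 8.90% in saline 1 and 2, and 9.96% and 7.39% in immune complex 1 and 2. Immune complex 2 thus had the lowest share over all genes and the highest in Fxyd2. The tables draw Fxyd2 as 1 transcript from position 45403138 to 45410278 of chromosome 9, whereas GENCODE M21 lists 13 transcripts and begins the gene at 45399669. Exons of other transcripts that fall between the drawn exons count as introns, and reads upstream of the drawn start are not counted. By exon reads alone the log2 difference of Fxyd2 was -0.11.

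**Figure D4:**
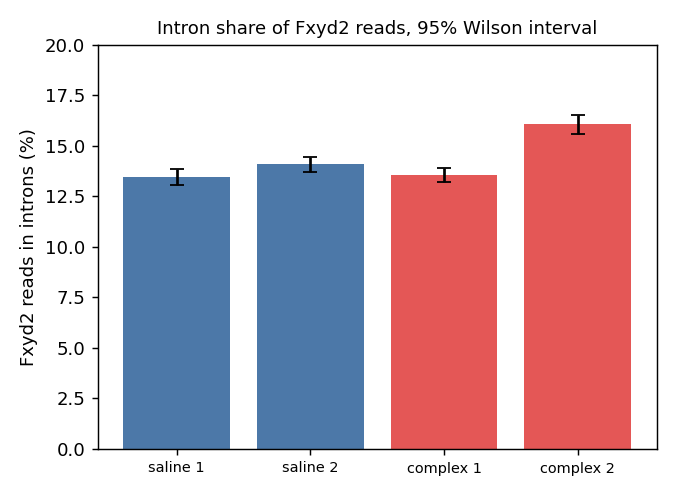
Share of Fxyd2 reads in introns, in percent (vertical axis, from 0), by library, with 95% Wilson intervals that cover counting error only. The bar of immune complex 2 stands at 16.1% and those of the other 3 libraries between 13.5% and 14.1%.

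Fxyd1, or phospholemman, regulates the pump in heart, skeletal and smooth muscle, and was the member with the largest difference. After saline it stood at 2.31 and 4.64 CPM (47 and 98 reads), and 9.28 and 4.82 CPM after immune complex (207 and 102 reads). Both immune complex values were above both saline values, but saline 2 and immune complex 2 nearly met. The log2 difference was 1.02 ± 0.45 (unadjusted p = 0.0623 and adjusted p = 0.99997 in edgeR's quasi-likelihood test), with a 95% interval from -0.07 to 2.11. With one library left out it was 0.47 (immune complex 1), 0.60 (saline 1), 1.41 (immune complex 2) or 1.60 (saline 2). The authors' deposited table gives Fxyd1 a p-value of 0.0356 and an adjusted p of 0.99996.

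The 3 genes nearest to Fxyd1 over the 4 libraries were chosen among 10717 genes by Euclidean distance between mean-centred log2 CPM. They were Lipe (hormone-sensitive lipase, distance 0.241), Agpat2 (an acyltransferase of triglyceride synthesis, 0.308) and Prkar2b (a regulatory subunit of protein kinase A, 0.321). Lipe stood at 20.7 and 49.2 CPM after saline, and 100.1 and 50.1 CPM after immune complex. Of 6 adipocyte markers 6 had both immune complex values above both saline values (15.4% of all tested genes), and their sum was 53.5 and 330.3 CPM after saline, and 973.4 and 811.8 CPM after immune complex. Adipoq (adiponectin) was at 0.148 CPM in saline 1 and at 87.8 CPM in immune complex 1, and Cidec at 0.541 and 146.6 CPM. The sum of 6 smooth muscle and pericyte markers was 110.2 and 167.0 CPM after saline, and 208.7 and 176.0 CPM after immune complex, and immune complex lay above saline without overlap for 5 of 6, against the same 15.4%. Myh11, smooth muscle myosin, stood at 16.8, 30.9, 36.3 and 32.8 CPM, and Acta2 at 20.02, 32.3, 44.0 and 27.2 CPM. Of 6 skeletal and cardiac muscle markers 3 had enough reads to be tested, and Acta1 had at most 0.0473 CPM. The part of fat and muscle cells in the Fxyd1 values was not tested.

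Fxyd3, a regulator of surface epithelia and many carcinomas, was the lowest and most variable member. It had 5 and 37 reads in saline (0.246 and 1.75 CPM) and 29 and 6 reads in immune complex libraries (1.30 and 0.284 CPM). One library of each group was high and the other low. The log2 difference was -0.33 ± 0.95, with a 95% interval from -2.61 to 1.95, so a change of several fold in either direction lies within it. From 37.9% to 66.7% of its reads were placed at 1 location, and the gene shares 2764 bases with Lgi4 on the other strand, which had 1 to 17 reads. Of 6 urothelial markers 5 were likewise highest in saline 2, where Upk1a stood at 8.94 CPM, against 1.48 CPM in saline 1 and 1.84 and 1.80 CPM after immune complex, and Upk1b at 14.7 against 1.28, 2.38 and 3.07 CPM. Their sum over 6 markers was 51.7 and 78.7 CPM after saline, and 15.0 and 14.8 CPM after immune complex. The exception, Psca, was highest in saline 1 (46.3 CPM, against 26.8 CPM in saline 2), and without it the sums were 5.31 and 51.9 CPM after saline, and 11.2 and 10.5 CPM after immune complex, with saline 1 the lowest. The part of urothelium in the Fxyd3 values was not tested. By the same distance the genes nearest to Fxyd3 were Lgals4 (a galectin of gut epithelium, 0.883), Pdk4 (an inhibitor of pyruvate dehydrogenase, 0.991) and Sprr1a (a cornified envelope protein, 1.09).

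Fxyd5, or dysadherin, which weakens cell adhesion, stood at 9.64 and 8.33 CPM after saline, and 10.4 and 7.09 CPM after immune complex. As with Fxyd2, the saline pair lay between the immune complex pair. The log2 difference was -0.03 ± 0.27, with a 95% interval from -0.69 to 0.62. Fxyd6, known from brain and inner ear, stood at 2.46 and 3.88 CPM after saline, and 3.72 and 2.60 CPM after immune complex. Its log2 difference was -0.00 ± 0.37, with a 95% interval from -0.90 to 0.89, and its group means of 3.17 and 3.16 CPM hide a spread within each pair of over 1 CPM. The nearest genes to Fxyd6 were Rpl3 (0.0922), Nthl1 (0.0971) and Snhg6 (0.100). By CPM, Fxyd6 was lowest in saline 1 (2.46, against 2.60 in immune complex 2), and its neighbour Fxyd2 in immune complex 2. By RPKM both were lowest in immune complex 2, where Fxyd6 stood at 1.31, against 1.42 in saline 1. Fxyd1, Fxyd3 and Fxyd5, close together on chromosome 7, had 3 different profiles over the libraries.

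Most glial and lymphocyte markers had too few reads to be tested. Of 6 glia and nerve markers 2 could be tested. Of 6 lymphocyte markers 1 could be tested, and Cd3e and Cd3g had at most 0.142 and 0.0984 CPM. Tubule genes were abundant, as the kidney label requires, with Umod at up to 5748 CPM.

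No other gene of the pump and of sodium transport had an adjusted p under 0.05 in edgeR's test, while DESeq2 called 1 of them. Of 7 other pump and FXYD genes 4 were tested, with 2 higher and 2 lower, log2 fold changes from -1.24 to 2.93 and a median of 0.42. Groups did not overlap for 3 of the 4 (30.0% of all tested genes), and 2 had an unadjusted p under 0.05 (4.59% of all tested genes). One of them, Fxyd4, the regulator of collecting duct principal cells, stood at 63.8 and 37.9 CPM after saline, and 24.2 and 18.9 CPM after immune complex, a log2 difference of -1.24 ± 0.29 (edgeR adjusted p = 0.711). The authors' deposited table calls Fxyd4, with an adjusted p of 0.0122, and DESeq2 did so here with an adjusted p of 0.00885. The principal cell water channel Aqp2 stood at 1704 and 544.3 CPM after saline, and 528.0 and 301.9 CPM after immune complex. The sum of the 6 principal cell markers, Fxyd4 among them, was 1905, 683.5, 664.8 and 414.2 CPM. Most of this sum came from Aqp2 in every library. The part of principal cells in the Fxyd4 value was not tested. Scnn1g, a sodium channel subunit of the same cells, stood at 53.6, 42.8, 48.5 and 46.5 CPM. Fxyd7, a brain FXYD gene, had 7, 6, 4 and 2 reads and was not tested.

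Of 11 related potassium ATPases and pump partners 9 were tested, with 2 higher and 7 lower, a median log2 fold change of -0.26, and groups that did not overlap for 4, all lower (14.6% of all tested genes). Atp12a, the catalytic subunit of the non-gastric hydrogen-potassium pump, stood at 1.38 and 1.51 CPM after saline, and 0.403 and 0.614 CPM after immune complex, a log2 difference of -1.50 ± 0.43 (edgeR adjusted p = 0.868). Sgk1, a kinase that raises sodium uptake, stood at 278.8 and 165.9 against 138.2 and 149.2 CPM, a log2 difference of -0.63 ± 0.27, and -0.21 without saline replicate 1. None of these differences passed the edgeR test over all genes.

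Apical transporters let in the sodium that the pump then moves out of the cell. All 9 entry transporters were tested, with 2 higher and 7 lower, a median log2 fold change of -0.04 and overlapping groups for every one of the 9. The 2 with the lowest p were Scnn1a, at 169.5 and 145.0 CPM in saline against 201.6 and 159.4 CPM (log2 difference 0.20 ± 0.20), and Slc5a1, a glucose cotransporter, at 83.0 and 105.3 against 90.2 and 118.8 CPM (0.15 ± 0.22, and -0.06 without immune complex replicate 2). Of 12 genes of Fxyd2 control and magnesium handling 11 were tested, with 5 higher and 6 lower and a median of -0.05. Groups did not overlap for 3 of the 11, 1 higher and 2 lower, against 30.0% of all tested genes. Trpm7, a magnesium channel, stood at 101.7 and 104.2 against 108.1 and 157.4 CPM, a log2 difference of 0.37 ± 0.22, and 0.07 without immune complex replicate 2.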

How the data were processed

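RNA from kidney was sequenced in 4 libraries (2 saline, 2 immune complex). Without giving a role, the submitters' processing notes list GRCm38, DESeq2 and STAR 2.5.2b. The counter, annotation and strand setting were not given in the sources used here. Per the file headers, the deposited tables hold raw read counts per gene (all, unique, in exons, in introns), RPKM computed by the authors, and lengths in bases. A further deposited table holds the authors' comparison, with log2 fold changes, test scores, p-values and a mean signal per gene. It divides saline by immune complex, as the read ratio has the opposite sign for 80 of 80 called genes.

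Total gene reads (19675879 to 22791960 per library) were compared with edgeR 4.0.16 under R 4.3.3 (filterByExpr, TMM, glmQLFit, glmQLFTest, adjusted p of 0.05 over 16334 genes, no block). Standard errors are the fold change divided by the root of F, and 95% intervals use the test's total degrees of freedom. The common biological coefficient of variation was 0.212. The script was tested on simulated data. Wilson intervals hold for counting error alone, because PCR copies were not marked by molecular identifiers. Alternatives were exon or unique reads, other scaling, no filter, DESeq2 1.42.0, limma-voom (limma 3.58.1), a replicate block and each library left out.

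Members and gene lists were chosen with earlier results of these data known. Named were all members, other pump and FXYD genes, the 2 lowest p of each other pathway list, the first 2 genes of marker lists (not all printed), and the 3 nearest genes (mean of at least 5 CPM, log2 CPM with a prior count of 2) of the 3 members with the widest range. Some genes taken by this rule are not reported here. Kap, Psca and Myl1 were named after their values were seen.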

Additional observations from a re-analysis of the deposited data

How the results depend on the processing

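No member had an adjusted p under 0.05 under any of the 13 alternatives run, and the lowest of these adjusted p-values was 0.120 (Fxyd1, without saline replicate 2). Fxyd1 was higher in immune complex kidneys in all 13, and Atp1b2 had a log2 fold change under 0 in all 13, though it was -0.0014 without immune complex replicate 2. Left-out libraries gave log2 fold changes from -0.188 to 0.0511 for Atp1b1, -0.33 to -0.0014 for Atp1b2, -0.11 to 0.10 for Atp1b3, -0.44 to 0.14 for Fxyd2, -1.80 to 1.66 for Fxyd3, -0.34 to 0.22 for Fxyd5, -0.30 to 0.35 for Fxyd6 and -0.0620 to 0.335 for Slc5a1. Atp1b3 was 0.0182 by exon reads and 0.0238 by unique reads, and Fxyd6 was 0.00907 by limma-voom, 0.00742 with the replicate block and 0.00661 with a crossed replicate block. The cause was not tested. Members with non-overlapping groups numbered 3 to 6 with a library left out, where a single library stands against 2 and is assumed to vary like the others, and where 48.6% to 79.6% of all tested genes did not overlap.

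Over all genes, 1 was called by unique reads, 2 without the filter, 96 by DESeq2, 55 with the replicate block and 0 to 279 with a library left out (47 without saline replicate 1, 279 without saline replicate 2). Of the other pump and sodium transport genes, 0 were called in the main setting, 1 by DESeq2, 1 with the replicate block and 0 to 2 with a library left out. Deviations of same-numbered libraries correlated at -0.13. This single value cannot tell whether the numbers pair the samples, and no label says that they do. A crossed replicate block, added after seeing the data, called 160 genes. Of these, 0 were members and 1 was another pump or sodium transport gene. Fxyd4, called by DESeq2, was not the gene called with either block. Its adjusted p in edgeR's test was 0.0509 with the replicate block and 0.0533 with the crossed one. Fxyd3 had the fewest reads of the members, 5 to 37 a library.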
